A study of Homo sapiens with 6 samples.

Results

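The 10 genes described here belong to the BCL2 family, which decides whether a cell's mitochondria release the proteins that start apoptosis. They were taken by symbol (BCL2, BCL2L1, BCL2L2, MCL1, BAX, BAK1, BID, BBC3, PMAIP1 and BCL2L11), and each matched 1 row among the 62703 Ensembl gene IDs of the deposited table. The RNA came from MNNG/HOS Cl #5, an established human osteosarcoma line of wild-type genotype per the labels, at day 7 after seeding. Cells of the 3D group (3 libraries) grew inside a demineralised bone matrix scaffold and those of the 2D group (3 libraries) grew flat, both in the same high-glucose medium with serum and antibiotics and with no drug named. The series title names drug resistance in the scaffold. All 6 libraries are of 1 line, and the labels do not say that replicates came from separate cultures, so p-values measure only the spread between these libraries, which may be technical.

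Family members fall into 3 roles. Survival members (BCL2, BCL2L1, BCL2L2, MCL1) hold the death members in check, pore-forming members (BAX, BAK1) open the outer mitochondrial membrane, and BH3-only members (BID, BBC3, PMAIP1, BCL2L11) carry the stress signal by binding the survival members or by activating the pore formers. Cytochrome c then leaves the mitochondria and builds the apoptosome with APAF1 and caspase 9. Much of this control acts on protein, through cleavage, phosphorylation and turnover, which RNA levels do not show. Many drugs used against tumours, osteosarcoma among them, can kill through this route.

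In the scaffold, the transcripts of both pore formers and of the survival members BCL2L1 and BCL2L2 were higher, and the transcript of the BH3-only member BBC3 was lower. MCL1, the most abundant survival member in this table, was at 18.4 ± 0.685 FPKM in 3D and 18.5 ± 3.35 FPKM in 2D (SD, n = 3 each). FPKM are fragments scaled to gene length and library total. Of the 10 genes, 9 passed the filter on low values (at least 1 FPKM in at least 3 libraries). BCL2 did not. Of the 9, 4 were higher in 3D, 1 was lower and 4 did not pass (limma, Benjamini-Hochberg adjusted p under 0.05 over all 12843 tested genes). Over all tested genes, 33.3% were higher and 18.1% were lower, 51.4% in all, so the number of family genes called was near the background. The median log2 change was 0.29 over the 9 genes and 0.14 over all tested genes. The direction and call of BBC3, BCL2L1, BAK1 and BAX held under every alternative in which each was tested. BCL2L2 kept its call in only 4 of 13 alternatives.

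The start regions of BBC3, BAX and BAK1 are shown because they belong to the gene that fell most and to the pair of pore formers that rose together. Each window runs from 250 bases before to 50 bases after the RefSeq transcription start (RefSeq, GRCh38.p14), written 5′ to 3′ on the gene's strand, and capitals mark GGGCGG (the GC box) on either strand and CACGTG (the E-box bound by MYC and related factors). The windows lie at chr19:47232618-47232917 (minus strand) for BBC3, chr19:48954625-48954924 (plus strand) for BAX and chr6:33580227-33580526 (minus strand) for BAK1.
BBC3: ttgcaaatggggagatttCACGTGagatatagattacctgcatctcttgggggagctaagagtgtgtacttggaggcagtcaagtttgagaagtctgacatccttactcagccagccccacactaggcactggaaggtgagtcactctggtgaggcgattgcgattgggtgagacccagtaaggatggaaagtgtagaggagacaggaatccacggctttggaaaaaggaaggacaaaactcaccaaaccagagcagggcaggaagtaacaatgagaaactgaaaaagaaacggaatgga
BAX: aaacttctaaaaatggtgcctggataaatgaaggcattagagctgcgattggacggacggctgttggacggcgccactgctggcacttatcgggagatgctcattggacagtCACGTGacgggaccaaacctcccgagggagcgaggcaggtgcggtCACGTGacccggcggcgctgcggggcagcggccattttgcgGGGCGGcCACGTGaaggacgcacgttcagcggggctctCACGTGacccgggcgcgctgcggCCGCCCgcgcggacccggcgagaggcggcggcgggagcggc
BAK1: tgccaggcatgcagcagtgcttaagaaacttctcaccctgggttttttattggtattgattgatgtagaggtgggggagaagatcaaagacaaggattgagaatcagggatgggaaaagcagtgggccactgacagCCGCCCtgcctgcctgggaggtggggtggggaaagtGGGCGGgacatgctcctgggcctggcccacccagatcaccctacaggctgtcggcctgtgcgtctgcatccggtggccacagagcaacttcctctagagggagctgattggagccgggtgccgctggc
The BBC3 window was 48% G or C and held 1 E-box and no GC box. The BAX window was 67.3% G or C, with 4 E-boxes and 2 GC boxes, none of them overlapping. The BAK1 window was 58.7% G or C, with 2 GC boxes and no E-box. Of 35116 windows of the same length, with a median of 58.7% G or C, 7.26% held the E-box and 45% the GC box. The FOXO core GTAAACA, in 3.42% of windows, had 1 match among the family genes with a window, in BCL2L11. Both strands were searched, and a match describes letters only. Of the 10 genes, 8 had windows in the table.

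Reads worked out from the FPKM values summed to 12958426 to 15883179 in the 3D libraries and 13098270 to 13719146 in the 2D libraries. A principal component analysis of the tested genes separated 3D and 2D on its first axis (72.7%), and on the next (10.2%) 3D replicate 1 and 2D replicate 3 stood away from their own groups. Of 9 mesenchymal marker genes 7 were tested, 1 of them higher and 2 lower in 3D. VIM, the intermediate filament of mesenchymal cells, was at 291 to 297 FPKM in 3D and 514 to 744 FPKM in 2D, and SPARC, a bone matrix protein, at 47.9 to 56.2 FPKM in 3D and 49.7 to 59.4 FPKM in 2D. COL1A1, a chain of type I collagen, was the mesenchymal marker called higher, at 36.6 to 50.03 FPKM in 3D and 7.26 to 10.1 FPKM in 2D (log2 change 2.27, limma adjusted p = 0.000267), whereas VIM was called lower (limma adjusted p = 0.00191). RUNX2, the master factor of bone-forming cells, was at 0.948 to 3.69 FPKM in 3D and 0.477 to 0.953 FPKM in 2D, which overlap. Neither RUNX2 nor COL1A2, the other chain of type I collagen, passed the filter. The leukocyte gene CD3E, the red cell gene ALAS2, the endothelial gene CDH5, the adipocyte genes ADIPOQ, LEP and CIDEC and the epithelial genes KRT5 and KRT20 were listed at 0 in all 6 libraries. Other genes of these lists were not, among them the adipocyte gene FABP4, at 0.926 to 1.4 FPKM in 3D and 0.42 to 0.64 FPKM in 2D, with no overlap. The epithelial gene EPCAM was at 1.39 to 1.67 FPKM in 3D and 1.31 to 1.65 FPKM in 2D. Summed, the 5 endothelial genes were at 0.251 to 0.385 FPKM in 3D and 0.18 to 0.284 FPKM in 2D, the 5 adipocyte genes at 0.926 to 1.44 FPKM in 3D and 0.467 to 0.719 FPKM in 2D, and the 5 epithelial genes at 1.55 to 1.78 FPKM in 3D and 1.66 to 1.92 FPKM in 2D. The 7 leukocyte genes summed to 4.2 to 6.52 FPKM in 3D and 17.9 to 25.6 FPKM in 2D. CD68, a lysosomal protein that other cells also make, was at 2.49 to 4.36 FPKM in 3D and 16.7 to 22.1 FPKM in 2D, and LYZ and CD14 gave nearly all of the rest. The 5 red cell genes summed to 2.44 to 8.16 FPKM in 3D and 2.42 to 30.2 FPKM in 2D. Their part in the results was not tested. In bulk RNA, fewer cells that express a gene and less RNA per cell cannot be told apart.

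**Figure D1:**
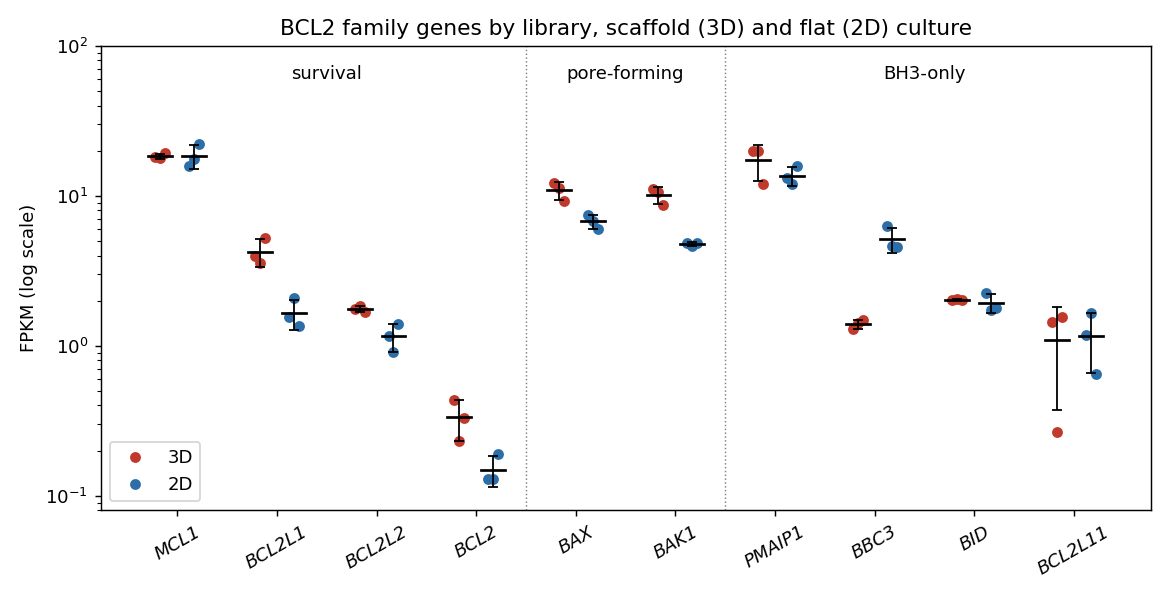
FPKM of each BCL2 family gene in each library on a log scale, 3D (red, left) and 2D (blue, right), with the mean (bar) and SD (whiskers, n = 3), ordered by role. BCL2L1, BCL2L2, BCL2, BAX and BAK1 lay higher in every 3D library than in any 2D library and BBC3 lay lower, whereas MCL1, PMAIP1, BID and BCL2L11 overlapped.

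Levels spread over a wide range. In 3D the order of mean FPKM was MCL1 (18.4), PMAIP1 (17.3), BAX (10.9), BAK1 (10.1), BCL2L1 (4.25), BID (2.03), BCL2L2 (1.76), BBC3 (1.4), BCL2L11 (1.09) and BCL2 (0.332). There the neighbours MCL1 and PMAIP1, PMAIP1 and BAX, BAX and BAK1, BBC3 and BCL2L11, and BCL2L11 and BCL2 overlapped in their libraries. In 2D the order was MCL1 (18.5), PMAIP1 (13.6), BAX (6.75), BBC3 (5.15), BAK1 (4.79), BID (1.93), BCL2L1 (1.66), BCL2L11 and BCL2L2 (1.16 each) and BCL2 (0.149). There MCL1 and PMAIP1 overlapped, as did BAX with BBC3, BBC3 with BAK1, and each neighbouring pair from BID down to BCL2L2. BBC3 thus stood at position 8 in 3D and 4 in 2D, and BCL2L1 at position 5 in 3D and 7 in 2D. The lengths behind the deposited values bear on this order and are not stated in the sources used here. Lengths that give whole reads in every library were found by search. These were 1.49 times (BBC3) to 4.53 times (BCL2L1) the summed exon length of GENCODE 29. For BCL2L1 the length that gives whole reads was 15001 bases, against 3314 in GENCODE 29. For MCL1 it was 18909 against 4371, and 18909 bases is longer than the whole span of the gene in GENCODE 29. Read numbers of the family genes rest on the lengths found by search. With GENCODE 29 lengths BCL2L1 came to 19.2 ± 3.99 FPKM in 3D and 7.51 ± 1.7 FPKM in 2D and MCL1 to 79.5 ± 2.96 FPKM in 3D and 80.0 ± 14.5 FPKM in 2D (SD, n = 3 each), and the BCL2L1 mean moved above that of BAK1 (17.5 ± 2.27 FPKM) in 3D. With these lengths BBC3 stood at position 9 in 3D and 5 in 2D, and BCL2L1 at position 4 in 3D and 6 in 2D. Ratios of FPKM between groups do not depend on the length, since it is the same in every library. Changes of log2(FPKM + 1) and the filter on low values do depend on it. For BCL2L1 the log2 change was 0.98 on that scale and 1.36 in a fit of the worked-out reads (voom).

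Among the survival members, BCL2L1 had the largest change. The gene (ENSG00000171552, chromosome 20, 31664452 to 31723989, GRCh38 in GENCODE 29, as for all gene positions here) encodes BCL-XL, which binds both pore formers and most BH3-only proteins. Its values were 3.95, 3.56 and 5.24 FPKM in 3D replicates 1 to 3 and 1.55, 2.08 and 1.35 FPKM in 2D replicates 1 to 3. The lowest 3D library was above the highest 2D library, as for 39% of the tested genes (60.9% had groups apart in either direction). Its mean was 2.56-fold higher in 3D, a log2 change of 0.98 on the log2(FPKM + 1) scale (SE 0.16, limma adjusted p = 0.00223), a scale that understates the change of low genes. There were 736 to 1291 reads on it in the 3D libraries and 290 to 427 in those of 2D. An antisense gene, ABALON, shares 1424 exon bases with it and had 8 to 10 reads in 3D and 1 to 3 in 2D. Whether counting used strand is unknown here, and reads of such partners cannot be told apart.

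BCL2L2 (ENSG00000129473, chromosome 14, 23298790 to 23311759) encodes BCL-W, a close relative of BCL-XL. It was at 1.77, 1.83 and 1.67 FPKM in 3D and 1.16, 0.903 and 1.4 FPKM in 2D, so the groups did not overlap. The log2 change was 0.36 (SE 0.11, limma adjusted p = 0.0275). It no longer passed under median-ratio scaling (adjusted p = 0.0744), under upper-quartile scaling (adjusted p = 0.0726) or when all genes above 0 were tested (adjusted p = 0.063). Leaving out 3D replicate 1, 2 or 3 gave adjusted p = 0.0589, 0.0836 and 0.0552, and leaving out 2D replicate 1 or 2 gave 0.0654 and 0.0812. The read-through gene BCL2L2-PABPN1 shares 813 exon bases with it on the same strand and was at 11.2 to 14.3 FPKM in 3D and 6.76 to 9.01 FPKM in 2D, and PPP1R3E shares 206 bases on the opposite strand, so how reads were split between them is uncertain.

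MCL1 (ENSG00000143384, chromosome 1, 150574551 to 150579738) encodes a short-lived survival protein that must be made continuously. It was at 18.0, 17.9 and 19.2 FPKM in 3D and 15.7, 17.5 and 22.2 FPKM in 2D. The 2D libraries bracketed the 3D libraries, and the change did not pass (log2 change 0.00, SE 0.13, 95% interval -0.31 to 0.32, limma adjusted p = 0.978). With 4565 to 5954 worked-out reads in 3D and 4205 to 6003 in 2D, it had the most of the 10 genes. BCL2 (ENSG00000171791, chromosome 18, 63123346 to 63320128), the founding member of the family, lay under the filter, at 0.434, 0.233 and 0.33 FPKM in 3D and 0.129, 0.129 and 0.19 FPKM in 2D. It had 58 to 105 reads in 3D libraries and 32 to 49 in 2D libraries, with no overlap between the groups in FPKM. Tested with no low-value filter, it did not pass (limma adjusted p = 0.12).

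Summed over the 4 survival genes, 3D libraries held 24.2, 23.6 and 26.4 FPKM and 2D libraries 18.6, 20.7 and 25.2 FPKM, which overlap. MCL1 made up 74.4 ± 1.78% of that sum in 3D and 86.0 ± 2.01% in 2D, and BCL2L1 17.1 ± 2.46% in 3D and 7.92 ± 2.37% in 2D (SD, n = 3 each). The log2 ratio of BCL2L1 to MCL1 was -2.19, -2.34 and -1.87 in 3D and -3.35, -3.08 and -4.04 in 2D. The difference was 1.35, and the exact 2-sided permutation test over libraries gave p = 0.1, the smallest that 3 against 3 allow (adjusted p = 0.133 over 4 ratios). These shares use the deposited FPKM values. Shares and levels of a ratio would shift with other lengths, but the difference of a log2 ratio would not.

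Both pore formers were higher in the scaffold. BAX (ENSG00000087088, chromosome 19, 48954815 to 48961798) encodes the pore former that moves from the cytosol to mitochondria on a death signal. It was at 12.2, 11.3 and 9.23 FPKM in 3D and 7.46, 6.79 and 5.99 FPKM in 2D. All 3D libraries were above all 2D libraries, by 1.61-fold on the means (log2 change 0.61, SE 0.13, limma adjusted p = 0.00627). BAK1 (ENSG00000030110, chromosome 6, 33572547 to 33580293) encodes BAK, which sits in the mitochondrial membrane already in healthy cells. It was at 11.2, 10.5 and 8.66 FPKM in 3D and 4.87, 4.65 and 4.86 FPKM in 2D. The change was 2.12-fold (log2 change 0.94, SE 0.11, limma adjusted p = 0.000771), and the 2D libraries were close to each other (SD 0.125 FPKM).

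The summed FPKM of the pair was 23.3, 21.8 and 17.9 in 3D and 12.3, 11.4 and 10.8 in 2D. BAX made up 51.8 ± 0.248% of it in 3D and 58.4 ± 2.78% in 2D. The log2 ratio of BAX to BAK1 was 0.12, 0.10 and 0.09 in 3D and 0.62, 0.55 and 0.30 in 2D, so the BAX share was smaller in every 3D library than in any 2D library (difference -0.39, exact permutation p = 0.1, the smallest possible, adjusted p = 0.133). The 3D replicate 3 library was the lowest of the 3D group for both genes.

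**Figure D2:**
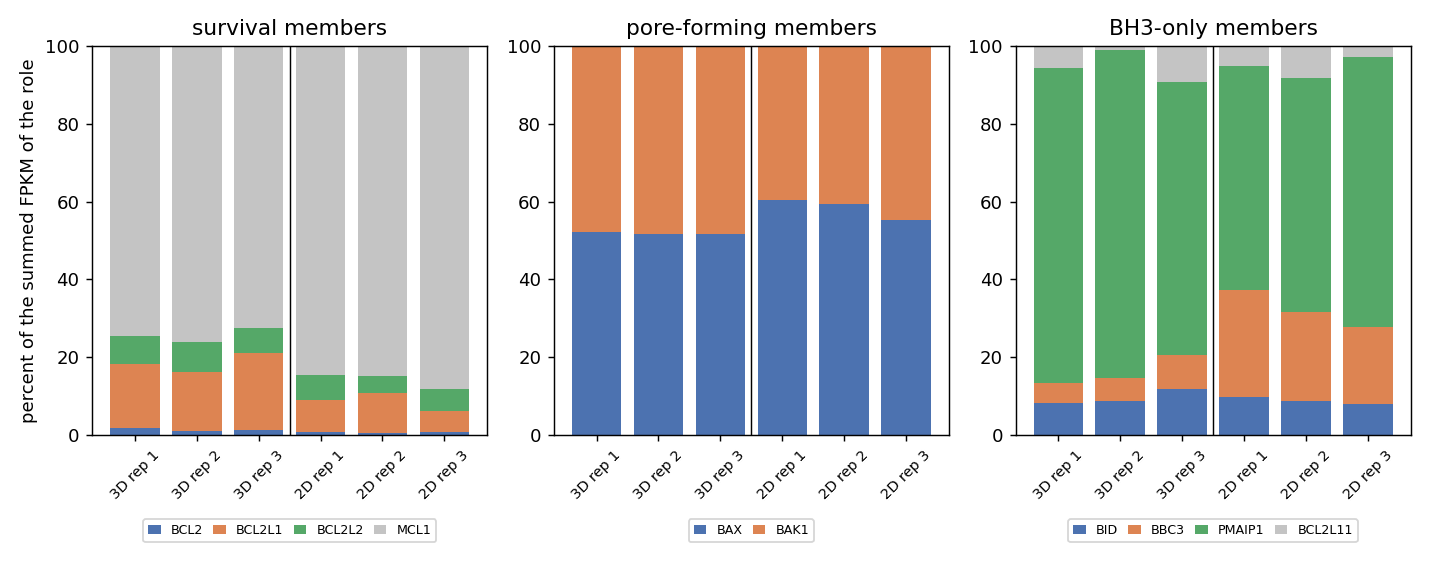
Share of each gene in the summed FPKM of its role (percent) in every library, 3D left of the line and 2D right of it, for survival, pore-forming and BH3-only genes. BCL2L1 took 15.1 to 19.8% of the survival sum in 3D and 5.38 to 10.1% in 2D, and BBC3 took 5.21 to 8.68% of the BH3-only sum in 3D and 20.01 to 27.5% in 2D.

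Among the listed members, BBC3 alone was called lower. The gene (ENSG00000105327, chromosome 19, 47220822 to 47232766) encodes PUMA, a BH3-only protein that can bind all the survival members and is a target of FOXO3. It was at 1.29, 1.42 and 1.48 FPKM in 3D and 6.26, 4.63 and 4.56 FPKM in 2D. Every 3D library was below every 2D library, as for 21.9% of the tested genes, and 2D replicate 1 was the highest. The mean was 3.69-fold lower in 3D (log2 change -1.35, SE 0.13, limma adjusted p = 0.000407), with 82 to 115 reads in 3D libraries and 301 to 420 in 2D libraries. It ranked 195 by size of fall among the 12843 tested genes. Without 2D replicate 1 the log2 change was -1.22, and over 13 alternatives it lay between -1.86 and -1.22 with adjusted p of 0.000189 to 0.00302. The microRNA genes MIR3190 and MIR3191 lie within its exons and were at 0 or 1 read in each library.

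The other BH3-only members did not pass. PMAIP1 (ENSG00000141682, chromosome 18, 59899948 to 59904306), which encodes NOXA, a protein that binds MCL1 in particular and helps to remove it, was at 20.03, 19.9 and 11.9 FPKM in 3D and 13.1, 12.1 and 15.8 FPKM in 2D. In 3D, replicates 1 and 2 were above all 2D libraries and replicate 3 was below all of them (log2 change 0.29, SE 0.21, limma adjusted p = 0.272). Without 3D replicate 3 the log2 change was 0.53 and passed (adjusted p = 0.0227). The log2 ratio of PMAIP1 to MCL1 overlapped between groups, at 0.15, 0.15 and -0.68 in 3D and -0.27, -0.54 and -0.49 in 2D (difference 0.31, exact permutation p = 0.4).

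BCL2L11 (ENSG00000153094, chromosome 2, 111119378 to 111168447) encodes BIM, an activator that binds all the survival members and is also a FOXO3 target. It was at 1.43, 0.266 and 1.57 FPKM in 3D and 1.19, 1.65 and 0.65 FPKM in 2D. The 3D replicate 2 library, with 55 reads against 287 and 385 in replicates 1 and 3, was the lowest of all 6. The change did not pass (log2 change -0.09, SE 0.30, 95% interval -0.80 to 0.62, limma adjusted p = 0.827), and 95.7% of the tested genes had a smaller spread within groups. Without 3D replicate 2 the log2 change was 0.24, again not passed (adjusted p = 0.387). In that library, 57 of the tested genes were more than 3-fold below both other 3D libraries, against 106 in 3D replicate 1 and 60 in 3D replicate 3. The lincRNA gene MIR4435-2HG shares 727 exon bases with BCL2L11 on the opposite strand, at 412 to 474 reads in 3D and 282 to 399 in 2D.

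BID (ENSG00000015475, chromosome 22, 17734138 to 17774770), which caspase 8 cleaves to link death receptors to mitochondria, was at 2.02, 2.04 and 2.03 FPKM in 3D and 2.25, 1.73 and 1.79 FPKM in 2D and did not pass (log2 change 0.06, SE 0.10, 95% interval -0.18 to 0.29, limma adjusted p = 0.666). The 4 BH3-only genes summed to 24.8, 23.6 and 17.0 FPKM in 3D and 22.8, 20.1 and 22.8 FPKM in 2D, so the sums overlapped. PMAIP1 made up 78.4 ± 7.33% of that sum in 3D and 62.3 ± 6.22% in 2D, and BBC3 6.64 ± 1.82% in 3D and 23.5 ± 3.76% in 2D. The log2 ratio of BCL2L11 to BCL2L1 was -1.46, -3.74 and -1.74 in 3D and -0.38, -0.33 and -1.06 in 2D, with no overlap (difference -1.72, exact permutation p = 0.1, adjusted p = 0.133). Without 3D replicate 2 this difference was -1.01.

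**Figure D3:**
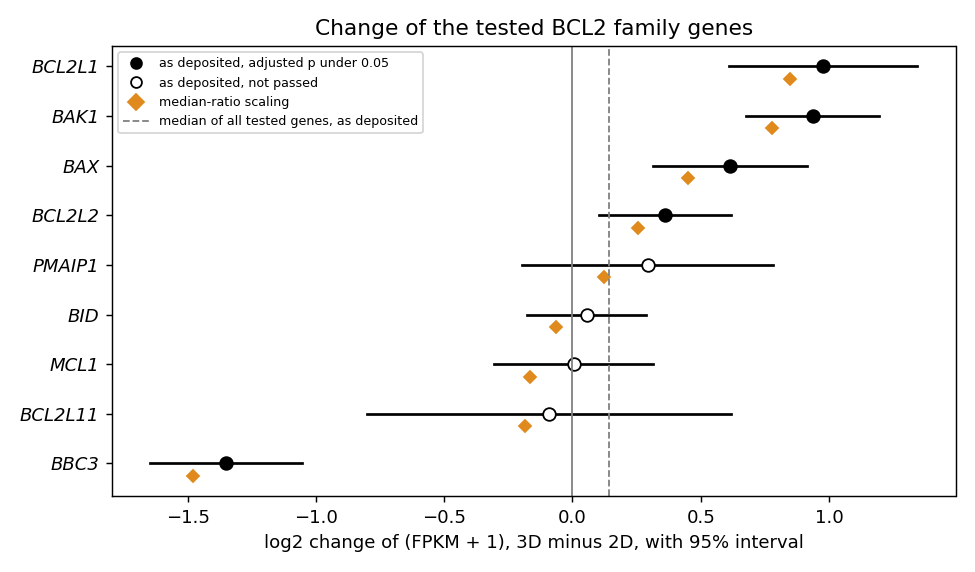
Log2 change of (FPKM + 1), 3D minus 2D, of the 9 tested BCL2 family genes with 95% intervals (limma), filled where the adjusted p was under 0.05, with median-ratio scaling as diamonds and the median of all tested genes (0.14) as a dashed line. BCL2L1 (0.98) and BBC3 (-1.35) mark the ends, and the diamonds lie lower for all 9 genes.

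Rescaling the libraries lowered the log2 change of all 9 tested family genes. As deposited, 4272 of all tested genes were higher in 3D and 2328 lower, with a median log2 change of 0.14. With median-ratio scaling 3148 were higher and 3148 lower, or 24.5% each, and the median was 0.01. With upper-quartile scaling 25.3% were higher and 23.8% lower. The family counts were 3 higher and 1 lower under each of these scalings, since BCL2L2 did not pass. With median-ratio scaling the log2 changes were 0.85 for BCL2L1, 0.78 for BAK1, 0.45 for BAX and -1.48 for BBC3, while those of MCL1 and BID turned to -0.17 and -0.07 without passing (adjusted p = 0.3 and 0.601).

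For each called family gene, the most alike of all other tested genes with a symbol was picked. A high r was therefore likely from the search itself. Pearson's r of log2(FPKM + 1) over the 6 libraries was highest with OPN3 for BBC3 (0.9995), TPGS1 for BAX (0.9996), RILPL2 for BAK1 (0.999), TRAPPC13 for BCL2L1 (0.996) and RAB23 for BCL2L2 (0.998). The points share the split into groups, and from 9.02% (BCL2L2) to 23.9% (BAK1) of all tested genes had an r over 0.9 with these genes.

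Further family genes, from a list of 11, were mostly low. Tested were 5, of which 1 was lower, none was higher and 4 did not pass (median log2 change -0.27). Among all tested genes, 33.3% were higher and 18.1% lower. BOK, a relative of BAX and BAK1 that can form pores by itself, was at 16.8, 16.4 and 15.2 FPKM in 3D and 25.3, 26.7 and 24.1 FPKM in 2D (log2 change -0.62, SE 0.09, limma adjusted p = 0.00144). All its 3D libraries were below its 2D libraries, the opposite order to BAX and BAK1. BMF, a BH3-only protein linked to the cytoskeleton, was at 0.828, 7.27 and 8.61 FPKM in 3D and 11.7, 8.79 and 13.5 FPKM in 2D. Its groups did not overlap but it did not pass (log2 change -1.21, SE 0.60, limma adjusted p = 0.129), and 3D replicate 1 was far below the other libraries. Without that library the log2 change was -0.45 (adjusted p = 0.0879).

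BAD, a BH3-only protein held in check by survival kinases, was at 5.35 ± 0.981 FPKM in 3D and 6.63 ± 0.912 FPKM in 2D (SD, n = 3 each) and did not pass (log2 change -0.27, limma adjusted p = 0.164). BCL2L12 and BCL2L13 did not pass either (log2 changes 0.19 and 0.08). BCL2L14 was listed at 0 in every library, and BCL2A1, BCL2L10, BCL2L15, BIK and HRK lay under the filter, BIK at 9 to 13 reads in 3D and 2 to 9 in 2D.

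Around the family, genes that set MCL1 protein turnover moved in both directions. The list holds both ubiquitin ligase genes and deubiquitinase genes, so its counts and median have no single meaning for turnover. Of 8 tested (of 9), 4 were higher and 2 lower, with a median log2 change of 0.38, and the counts were the same with median-ratio and upper-quartile scaling. The shares over all tested genes were 33.3% higher and 18.1% lower as deposited, and 24.5% each with median-ratio scaling. OTUD1, which encodes a deubiquitinase, was lower (log2 change -1.15, SE 0.21, limma adjusted p = 0.00428). It was at 0.566, 0.878 and 1.16 FPKM in 3D and 3.73, 1.99 and 3.88 FPKM in 2D. In 3D only replicate 3 reached 1 FPKM, so OTUD1 passed the filter on low values through its 2D libraries. FBXW7, the substrate receptor of a ubiquitin ligase that marks MCL1, was also lower (log2 change -0.46, adjusted p = 0.00864). CDC20, the activator of the anaphase-promoting ligase, was higher, at 102.2 ± 11.6 FPKM in 3D and 70.0 ± 4.31 FPKM in 2D (log2 change 0.54, adjusted p = 0.00676).

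Transcription factors known to act on BH3-only genes also went both ways. Of 12 tested (of 15), 5 were higher and 4 lower, with a median of 0.05, and with median-ratio scaling 5 were higher and 6 lower, with a median of -0.09. All tested genes gave 33.3% higher and 18.1% lower as deposited, and 24.5% each with median-ratio scaling. FOXO3, a stress-responsive factor of BBC3 and BCL2L11, was at 13.7, 17.1 and 18.9 FPKM in 3D and 39.3, 44.0 and 40.6 FPKM in 2D (log2 change -1.28, SE 0.13, limma adjusted p = 0.000486). All 3D libraries were below all 2D libraries. E2F1, a factor of the G1/S transition, was at 31.6, 27.1 and 24.1 FPKM in 3D and 11.8, 10.7 and 8.98 FPKM in 2D (log2 change 1.31, adjusted p = 0.000555). Whether any factor of this list acted on BBC3, which was lower, or on BCL2L11, which did not pass, was not tested.

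Downstream of the pore, 4 of 12 tested genes of the apoptosome and caspases (of 13) were higher and 2 lower, with a median of 0.09. Shares over all tested genes were 33.3% higher and 18.1% lower. With median-ratio scaling 3 of the list were higher and 3 lower (median -0.05), against 24.5% each of all tested genes. Dropping any 1 of the 3D libraries or 2D replicate 2 left 1 lower, against 1947 to 2182 of all 12843 tested genes. Dropping 2D replicate 1, or testing all genes above 0, left 0 lower. Of all tested genes, 1954 of 12843 and 2274 of 33243 were lower there, in that order. AIFM1, a mitochondrial flavoprotein that can enter the nucleus in cell death, was at 3.76, 3.42 and 3.16 FPKM in 3D and 1.67, 1.64 and 1.61 FPKM in 2D (log2 change 0.75, SE 0.09, limma adjusted p = 0.000826). CYCS, which encodes cytochrome c, was at 38.1, 28.1 and 29.3 FPKM in 3D and 15.7, 15.0 and 15.2 FPKM in 2D (log2 change 1.00, adjusted p = 0.000982). CASP2, an initiator caspase, had a log2 change of 0.82 (adjusted p = 0.00234), whereas APAF1, the scaffold of the apoptosome, was at 5.79 ± 1.42 FPKM in 3D and 5.92 ± 2.7 FPKM in 2D (SD, n = 3 each) and did not pass (limma adjusted p = 0.932).

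Of the 13 membrane partners of the pore formers, all tested, 7 were higher, none was lower and 6 did not pass, with a median of 0.24. The shares of all tested genes were 33.3% higher and 18.1% lower. Partner counts depended on scaling, since 3 were higher and 3 lower with median-ratio scaling (median 0.11), against 24.5% each of all tested genes. When all genes above 0 were tested 3 partners were higher, against 4458 of all 33243 genes tested there. The same number came from dropping 3D replicate 2, 3D replicate 3 or 2D replicate 2. Of all 12843 tested genes, 3475, 3763 and 3485 were higher there, in that order. There were 4 partners higher without 3D replicate 1 or 2D replicate 1, against 3935 and 3643 of all tested genes. MFN2, a mitochondrial fusion protein, was at 10.8, 8.89 and 8.98 FPKM in 3D and 5.18, 5.69 and 5.39 FPKM in 2D (log2 change 0.71, SE 0.10, limma adjusted p = 0.0015). MTCH2, the membrane receptor of cleaved BID, had a log2 change of 0.98 (adjusted p = 0.00158), and OPA1, which shapes the inner membrane, one of 0.52 (adjusted p = 0.0114). VDAC2, the channel that holds BAK in the membrane, was at 18.0, 18.1 and 17.8 FPKM in 3D and 21.3, 22.1 and 20.2 FPKM in 2D. It did not pass as deposited (log2 change -0.23, SE 0.08, limma adjusted p = 0.0503) and passed with median-ratio scaling (log2 change -0.40, adjusted p = 0.0084).

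**Figure D4:**
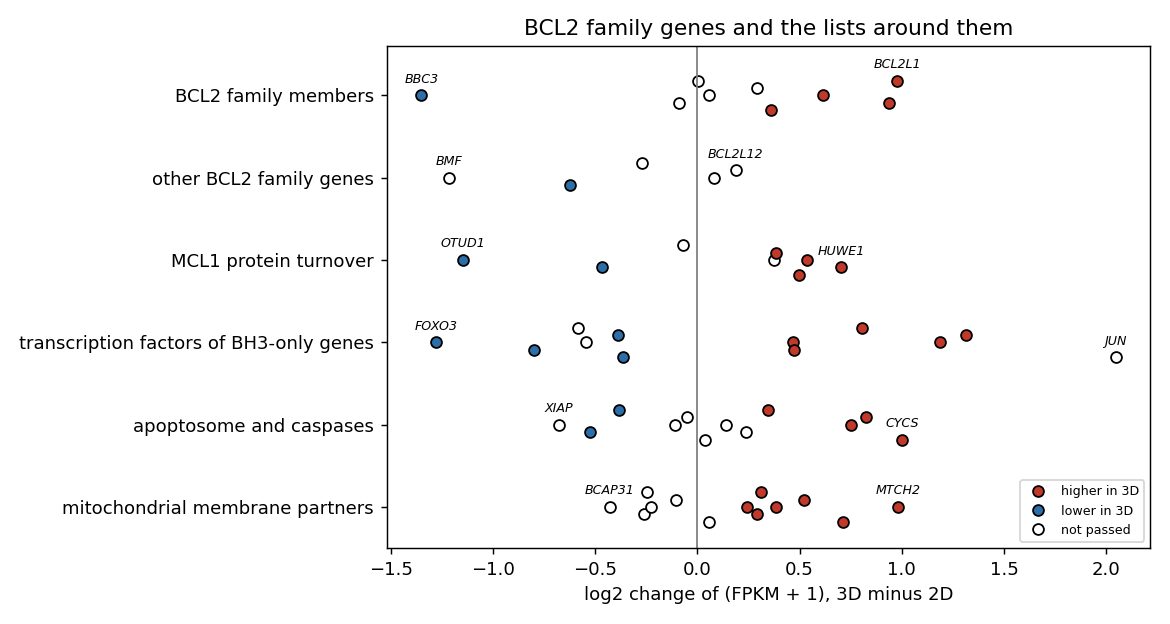
Log2 change of (FPKM + 1), 3D minus 2D, of every tested gene of the BCL2 family and of 5 lists around it, red where higher, blue where lower and white where the limma adjusted p was not under 0.05. The lowest and highest gene of each list are named. BBC3 (-1.35) and FOXO3 (-1.28) are the lowest called genes, E2F1 (1.31) is the highest called gene, and no membrane partner is blue.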

How the data were processed

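Poly(A)-enriched RNA of the 6 libraries was sequenced, per the labels' protocols, and the authors deposited 1 table of FPKM values per Ensembl gene ID. FastQC, fastp, HISAT2, StringTie, edgeR and the build GRCh38 are named in the submitters' processing notes, without roles. The annotation release, strandedness and counting were not given in the sources used here. FPKM depend on the lengths and library totals the authors used.

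Groups were compared with limma 3.58.1 (lmFit, then eBayes with its trend and robust options through statmod 1.5.0, under R 4.3.3) on log2(FPKM + 1), for the 12843 genes with at least 1 FPKM in at least 3 libraries, without covariates. The 2-sided p-values were adjusted by Benjamini-Hochberg over all tested genes. Alternatives were pseudocounts of 0.1 and 0.5, no filter and a minimum of 5 FPKM, 2 other scalings, voom, a replicate term and each library left out. The fit was also run on simulated reads. Far fewer genes changed there than were called here, so that run does not bear on these calls. Of the gene IDs, 62625 were in the name table used for symbols. Reads were worked out from the FPKM values as whole multiples within 0.01 reads plus 1e-05 of the count, for 12835 of the tested genes, and serve as depth behind each value and for a voom fit. Over all genes with whole reads they came to 95.6 to 96.8% of the implied totals. Libraries of 1 group differed beyond counting error, with a chi-square over its degrees of freedom of 11.5 to 25.1 for each pair. The members and lists were chosen with earlier results of these data known. Named were all members, all tested further family genes, the 3 genes of smallest adjusted p of each other list, and FOXO3, VDAC2 and APAF1. Some genes that these rules name are not reported here.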

Additional observations from a re-analysis of the deposited data

How the results depend on the processing

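BBC3, BCL2L1, BAK1 and BAX kept direction and call under all alternatives in which they were tested (13 for BBC3 and BCL2L1, 14 for BAK1 and BAX). With a minimum of 5 FPKM in at least 3 libraries only 4 members were tested, of which 2 were higher and 0 lower (BAX and BAK1 passed, MCL1 and PMAIP1 did not), and 2134 of all genes were higher and 1319 lower, from 5715 tested. The other members were not tested at this minimum, and BCL2 had a test only with no low-value filter. Leaving out each library gave 3 to 4 members higher and 1 lower. Of all 12843 tested genes, 3475 to 4065 were then higher and 1947 to 2182 lower. Without 3D replicate 3 the members called higher included PMAIP1 (limma adjusted p = 0.0227) but not BCL2L2 (limma adjusted p = 0.0552). Some genes that did not pass turned sign. With median-ratio scaling the log2 changes were -0.167 for MCL1, -0.0652 for BID, -0.0605 for BCL2L13 and -0.116 for APAF1, and with upper-quartile scaling -0.15, -0.0529, -0.0461 and -0.10 for the same genes. Over the libraries left out in turn MCL1 ranged from -0.10 to 0.14, BCL2L11 from -0.27 to 0.24, BCL2L13 from -0.0142 to 0.201 and APAF1 from -0.32 to 0.29. The cause was not tested. Same-numbered libraries did not all deviate together (correlations of deviations from the group mean of 0.0837, -0.0172 and 0.184 for numbers 1 to 3). The value for number 3 was the largest of all pairs of a 3D and a 2D library. With 3 libraries per group, such values cannot decide whether the numbers mark a shared batch. With the replicate block, 4291 genes were higher and 2382 lower, BCL2L2 did not pass (adjusted p = 0.0525), and the 4 ratio differences could not go below an exact p of 0.25. With 55 to 115 reads in some libraries, BCL2L11 and BBC3 have the fewest reads of the tested members in a single library.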
